A study of Homo sapiens with 9 samples.

Results

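Fragments next to 20 captured promoters, from 1 to 10 kb on either side of the transcription start site (TSS), were followed in HCT-116 MED14-dTAG cells through loss of the Mediator subunit MED14 with or without BET inhibition. A fragment here is a piece of genome cut by DpnII. It was taken when it lay on the chromosome of the viewpoint gene, when its midpoint was more than 1 kb and at most 10 kb from the TSS annotated on hg38, and when its value was above 0 in at least 1 of the 9 libraries. This gave 800 of the 11339756 rows deposited for the 20 viewpoints, 436 upstream and 364 downstream of the TSS in the orientation of the gene.

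HCT-116 cells are a human colorectal carcinoma line, and all groups carry the same MED14-dTAG genotype, in which MED14 is degraded when a dTAG ligand is added. Of the 9 libraries, 3 came from cells given DMSO, 3 from cells given the dTAG ligand (0.5 μM for 2 h) and 3 from cells given the dTAG ligand together with the BET bromodomain inhibitor I-BET (1 μM for 90 min), called dTAG+I-BET. There was no group with I-BET alone. The signal of a fragment is its number of ligation junctions with the viewpoint (interactions), brought by the authors to nearly equal totals for every viewpoint in every library. The count of 3 replicates per group rests on the study's statement of biological replicates.

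Mediator is a large complex that connects transcription factors at enhancers with RNA polymerase II at promoters, and BET proteins bind acetylated chromatin at the same elements. In Capture-C, crosslinked and ligated chromatin is enriched for chosen promoter fragments, so that the pieces ligated to them can be counted. Sequence close to a viewpoint is ligated to it most often, whether or not it holds a regulatory element, and the downstream side of a promoter is usually the transcribed gene itself.

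Some of the fragments named in the results below are shown first, since each value belongs to 1 such piece between cutting sites. The bases printed lie outside annotated exons. Capitals mark the DpnII site GATC, which lies at both ends of all 800 fragments, and sequences are of the plus strand of hg38. SPRY4 +3.03 kb was among the fragments with the most signal in DMSO, and the others were among those with the smallest p in the comparisons. For PHLDA1 +8.37 kb (334 bp) and SPRY4 +3.03 kb (644 bp) the first 300 bases are given, and these 2 show 1 GATC only.
HS3ST1 -8.43 kb, chr4:11437964-11438014: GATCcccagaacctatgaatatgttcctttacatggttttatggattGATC
ERRFI1 +3.92 kb, chr1:8022330-8022455: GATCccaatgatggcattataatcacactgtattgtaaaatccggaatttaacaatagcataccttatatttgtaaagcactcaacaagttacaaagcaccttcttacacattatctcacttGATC
PHLDA1 +8.37 kb, chr12:76023239-76023538: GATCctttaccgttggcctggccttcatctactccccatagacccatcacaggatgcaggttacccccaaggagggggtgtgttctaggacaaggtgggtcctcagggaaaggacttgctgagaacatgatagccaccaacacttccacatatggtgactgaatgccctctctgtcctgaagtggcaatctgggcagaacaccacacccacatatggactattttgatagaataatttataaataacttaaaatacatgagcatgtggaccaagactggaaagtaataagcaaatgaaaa
SPRY4 +3.03 kb, chr5:142323099-142323398: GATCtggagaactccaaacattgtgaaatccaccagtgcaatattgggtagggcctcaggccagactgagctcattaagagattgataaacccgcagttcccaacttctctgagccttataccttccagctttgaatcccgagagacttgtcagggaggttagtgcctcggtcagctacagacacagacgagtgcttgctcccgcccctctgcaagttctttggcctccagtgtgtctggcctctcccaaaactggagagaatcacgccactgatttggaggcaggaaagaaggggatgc

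The 800 fragments were 14 to 2781 bp long (median 312.5) with a median GC content of 42.9%. By GENCODE annotation, 82 overlapped an exon of the canonical transcript of the viewpoint gene, and 240 overlapped that gene elsewhere, counted as intron. Of those outside the viewpoint gene, 268 overlapped another gene and 210 lay between genes. Of all 800, 13 held the start of another gene. Over all viewpoints a library held 484419 to 857998 interactions within the viewpoint chromosome, of which 7.50% to 9.61% fell into these fragments. A viewpoint had 1129 to 7376 of them in a library, and a fragment had a median of 56. All 102057804 deposited values were whole multiples of 1 interaction (100%).

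One library stood apart from the other 8. In dTAG replicate 3, signal at 1 to 2.5 kb over signal at 5 to 10 kb was 1.08 on the log2 scale, averaged over viewpoints, where the other libraries had 0.43 to 0.57. It had the lowest signal of all libraries from 5 to 10 kb at 20 of 20 viewpoints, and the highest ratio of near to far signal at 18. Relative to the DMSO mean it went from 0.14 at 1 to 2 kb upstream to -0.61 at 9 to 10 kb upstream, and from 0.25 to -0.40 downstream. These are means over the viewpoints with fragments in the band, 16 and 20 upstream and 19 and 20 downstream. Interactions with other chromosomes made up 39.6% in it and 33.6% to 36.7% in the other libraries. Values that it moves by more than 1.5 times or turns in sign are therefore given with and without it.

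**Figure D1:**
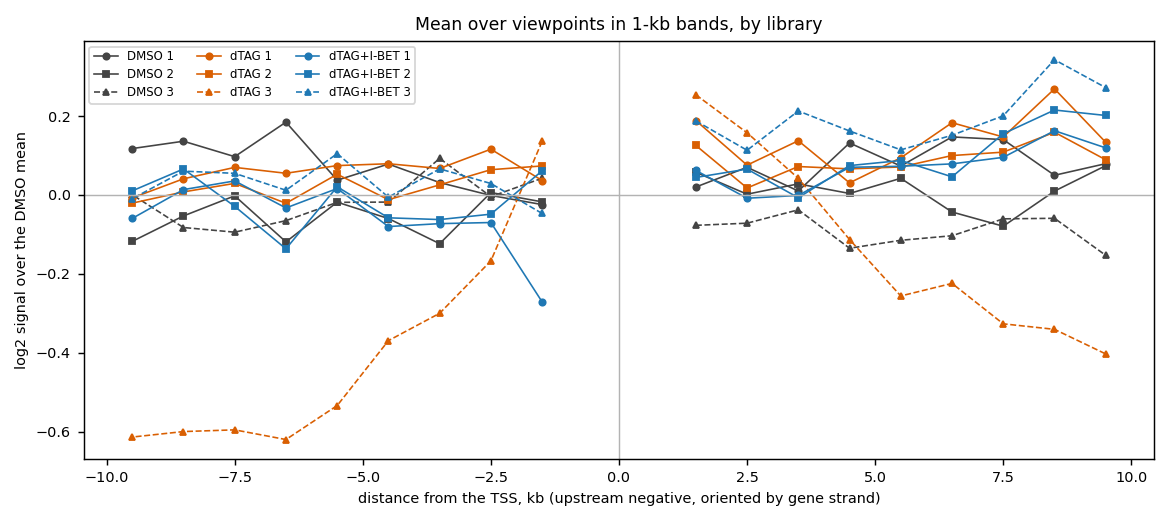
Signal in 1-kb bands (x axis, distance from the TSS in kb, upstream negative) as log2 over the DMSO mean (y axis). Each line is 1 library, as the mean over the 16 to 20 viewpoints that have fragments in a band, and colors give the treatment. dTAG replicate 3 falls from 0.14 to -0.61 upstream and from 0.25 to -0.40 downstream, while the other 8 libraries stay between -0.27 and 0.34.

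In DMSO-treated cells, ANGPT2, which encodes the TIE2 ligand angiopoietin-2, had the most signal near its promoter. DMSO replicates 1, 2 and 3 had 10147, 8758 and 9261 per kb. The values were 9846, 9227 and 8244 in dTAG and, in dTAG+I-BET, 9119, 9020.5 and 9924. These fragments took 18.1% of all signal on the chromosome in DMSO. ERRFI1, which encodes a feedback inhibitor of EGF receptor signaling, had the least, with 3407, 3313 and 3437 per kb in DMSO, 4032, 3770 and 3322 in dTAG, and 3602, 3654 and 4034 in dTAG+I-BET. Above it in DMSO, from low to high, came HS3ST1, ITPRID2, KRR1, EREG, PHLDA1, HMGA2, MYC, PCDH7, IRS1, DCBLD2, TRIB1, KITLG, SPRY4, KRT19, KRT80, DDIT4, MTAP and VTI1A. Of the 19 pairs of neighbors in this order, only VTI1A and ANGPT2 did not overlap in their DMSO replicates.

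**Figure D2:**
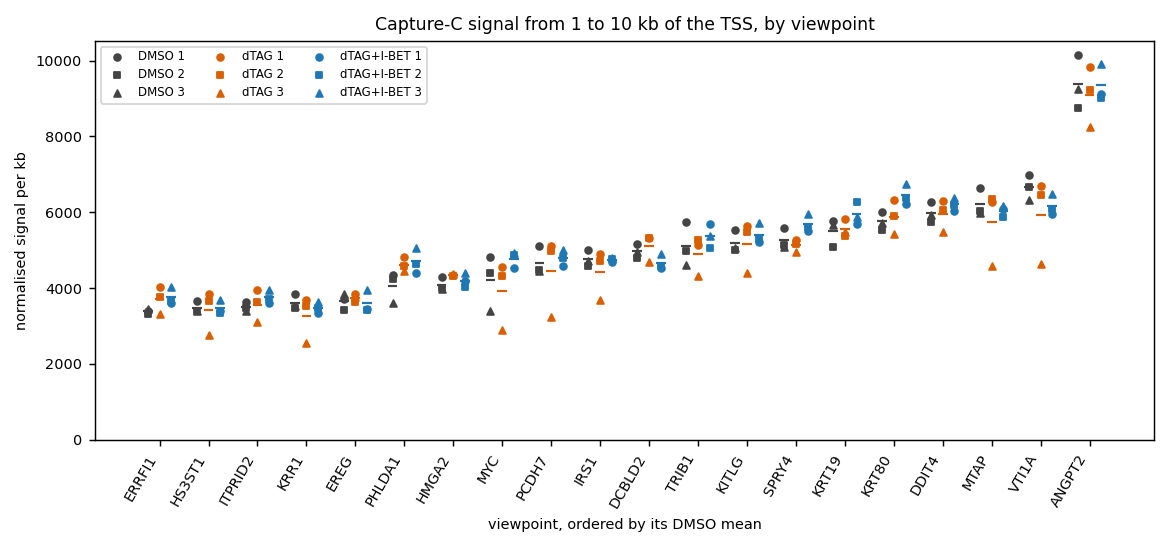
Normalised signal per kb from 1 to 10 kb of the TSS (y axis) at the 20 viewpoints (x axis, ordered by DMSO mean), with 1 point per library and short lines for group means of 3. ANGPT2 lies above all other viewpoints, and dTAG replicate 3 is the lowest library at 14 of 20 viewpoints.

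Signal did not simply fall with distance inside the 10 kb. Upstream, the median over viewpoints in DMSO was 4769 per kb from 1 to 2 kb, 6091 from 3 to 4 kb and 4759 from 9 to 10 kb. Downstream it was 4769, 9170 and 2792 per kb in the same bands. At the edges of the selection, the 40 fragments within 1 kb that were left out came from 14 viewpoints. The median over these viewpoints was 2261 per kb, and that over all 20 viewpoints was 4522 from 1 to 2 kb on both sides. From 9 to 10 kb it was 3842, against 3438 from 10 to 11 kb. The fragment next to the inner limit on the outside, 982 bp from the SPRY4 start, had a DMSO mean of 180, and the first one inside, 1017 bp from the KRT19 start, had 24. At the outer limit, a fragment 9997.5 bp upstream of KRR1 (750) was taken and one 10002 bp upstream of HMGA2 (627) was not.

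Fragment length moved with signal. Fragments of at most 100 bp had a median of 838 per fragment and 13412 per kb in DMSO (n = 136), and those over 800 bp had 2770 per fragment and 2383 per kb (n = 121). Across the 800 fragments, log2 length and log2 signal had a Pearson r of 0.58, and log2 distance and log2 signal had -0.11, as a description of fragments that share libraries. The fragments with the most signal at different viewpoints were long. ANGPT2 -2.65 kb (1044 bp, chr8:6565534-6566577, in MCPH1) had 10646, 8200 and 7709 in DMSO. SPRY4 +3.03 kb (chr5:142323103-142323746), in an intron of the FGF signaling inhibitor SPRY4, had 8167, 7600 and 6778. KRT80 +3.05 kb (1368 bp, chr12:52188281-52189648), in an intron of the keratin gene KRT80 and in LINC00592, had 7655, 6844 and 7062.

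The 2 sides of a promoter were rarely equal. The log2 ratio of downstream over upstream signal per kb was below 0 in all 3 DMSO libraries at 7 viewpoints and above 0 in all 3 at 8. It was lowest at ANGPT2, with -1.55, -1.38 and -1.49 in DMSO, -1.55, -1.44 and -1.22 in dTAG and -1.45, -1.36 and -1.39 in dTAG+I-BET. It was highest at SPRY4, with 0.87, 0.95 and 0.87 in DMSO, 0.79, 0.77 and 1.62 in dTAG and 0.83, 0.76 and 0.81 in dTAG+I-BET. Of the 19 pairs of neighbors in the order of this ratio, 4 did not overlap in DMSO. Where signal was taken per fragment instead of per kb, the ratio was 0.04 at ANGPT2 and kept its sign at 10 of 20 viewpoints, so that the order of sides depends on how fragment length is counted. Comparisons between treatments divide by the same length in every library, but shifts between libraries that differ with fragment length do not cancel in them.

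Where the captured fragment lies also sets these distances. Its position was inferred from the stretch without signal around the TSS, since oligonucleotide positions were not used here. By this inference the TSS lay in the captured fragment at 13 of 20 viewpoints. Measured from the inferred fragment, the ratio kept its sign at 19 of 20 viewpoints and was highest at PCDH7, which encodes a protocadherin (mean 1.30 in DMSO, against 0.63 from the TSS).

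The first question was whether losing MED14 alters contacts in the immediate surroundings of the promoter. The 40 windows of 1 viewpoint and 1 side were tested within a fit of 200 windows up to 500 kb (limma on log2 of signal per kb plus 1, all 9 libraries, Benjamini-Hochberg adjustment). Between dTAG and DMSO, limma called 0 of the 40 at an adjusted p under 0.05, where 5.5% of all 200 windows were called, and 3 had an unadjusted p under 0.05. edgeR on the recovered interactions also called 0 of the 40, with 3 at an unadjusted p under 0.05. In every comparison, counts of windows at an unadjusted p are given without the share of all 200. They are not read against a background. The fitted log2 ratios went from -0.27 to 0.33 with a median SE of 0.12, their median was -0.06, and that of all 200 windows was -0.07. Without dTAG replicate 3 these medians were 0.06 and 0.05. The 11 windows called were all farther than 10 kb from the TSS.

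The direction of the upstream windows rested on dTAG replicate 3. Upstream, 19 of 20 windows were below 0 (median -0.08), but without that library 16 of 20 were above 0 (median 0.06). Downstream 13 of 20 were above 0 (median 0.03), and 17 of 20 without it (median 0.10). The downstream majority rested on DMSO replicate 3, without which 10 of 20 were above 0 (median 0.02). All 3 dTAG libraries lay above all 3 DMSO libraries in 4 windows, all downstream, and in 0 windows below them, 10% of the 40 together against 15.5% of all 200 (6% above and 9.5% below). Without dTAG replicate 3, where overlap is rarer by construction, 7 downstream and 2 upstream windows were higher and 0 lower. Of all 200, 33% were then higher and 10% lower.

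The 3 windows with an unadjusted p under 0.05 were chosen after their values were seen. Downstream of PHLDA1, a gene linked to apoptosis, signal per kb was 4511, 4449 and 3450 in DMSO, 5298, 4791 and 5386 in dTAG, and 4812, 5111 and 5547 in dTAG+I-BET. All treated libraries were above all DMSO libraries. The log2 ratio of dTAG over DMSO was 0.33 (SE 0.12, limma adjusted p = 0.133), and 0.20 without DMSO replicate 3, the lowest library.

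Downstream of ERRFI1, signal per kb was 4110, 4253 and 4198 in DMSO, 5298, 4894 and 4713 in dTAG, and 4752, 4819 and 5275 in dTAG+I-BET. The groups did not overlap, and the log2 ratio of dTAG over DMSO was 0.25 (SE 0.10, limma adjusted p = 0.157). Downstream of the keratin gene KRT19, it was 4816, 4596 and 4854 in DMSO, 5312, 5360 and 6154 in dTAG, and 5324, 5899 and 5684 in dTAG+I-BET. Again no treated library fell into the DMSO range, with a log2 ratio of 0.24 (SE 0.09, limma adjusted p = 0.174). Without dTAG replicate 3 the ERRFI1 window passed the test (log2 0.28, limma adjusted p = 0.0143; 0.0134 to 0.465 over all alternatives).

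At MTAP, a gene of the methionine salvage pathway, upstream signal per kb was 6943, 5811 and 6377 in DMSO, 6094, 5961 and 4070 in dTAG, and 5989, 5652 and 6147 in dTAG+I-BET. The lowest value was that of dTAG replicate 3, and the log2 ratio of dTAG over DMSO was -0.27 (SE 0.14, limma adjusted p = 0.412), and -0.08 without that library. After rescaling to equal totals from 10 kb to 1 Mb it passed the test (log2 -0.40, limma adjusted p = 0.0170; 0.0170 to 0.913 over all alternatives). Downstream of MTAP the values were 6343, 6233 and 5586, 6449, 6712 and 5048, and 6162, 6083 and 6206 per kb in DMSO, dTAG and dTAG+I-BET, and the groups overlapped.

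At HMGA2, which encodes an architectural chromatin protein, upstream signal per kb was 4877, 4364 and 4700 in DMSO, 5053, 4816 and 3488 in dTAG, and 4583, 4433 and 4939 in dTAG+I-BET. Downstream, it was 3828, 3738 and 3408, 3796, 3964 and 5041, and 3871, 3716 and 3966 per kb in the same order. dTAG replicate 3 had the lowest value upstream and the highest downstream. The log2 ratios of dTAG over DMSO were -0.08 (SE 0.13) upstream and 0.21 (SE 0.12) downstream, and neither passed the test (limma adjusted p = 0.795 and 0.487). Without dTAG replicate 3 they were 0.09 on each side.

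At MYC, the transcription factor gene, upstream signal per kb was 4563, 4201 and 3724 in DMSO, 4203, 4101 and 2442 in dTAG, and 4110, 4501 and 4107 in dTAG+I-BET. Downstream, it was 5060, 4586 and 3090, 4903, 4521 and 3332, and 4951, 5232 and 5724 per kb in the same order. The DMSO and dTAG groups overlapped on both sides, each having its lowest value in replicate 3. The log2 ratio of dTAG over DMSO was -0.25 (SE 0.18) upstream, 0.0013 without dTAG replicate 3, and 0.01 (SE 0.18) downstream, where it was -0.20 without DMSO replicate 3 and 0.18 without dTAG replicate 3.

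By gene group, 0 windows were called in any group. In growth factor and receptor signaling (EREG, KITLG, ANGPT2, ERRFI1, SPRY4, IRS1 and TRIB1) 7 of 7 upstream windows were below 0 and 5 of 7 downstream windows above. Without dTAG replicate 3, only IRS1 stayed below 0 upstream (1 of 7). In epithelial cytoskeleton and cell surface (KRT19, KRT80, DCBLD2 and PCDH7) the counts were 4 of 4 and 3 of 4, and without that library only KRT19 stayed below upstream (1 of 4). In the 2 nuclear regulators of growth, MYC and HMGA2, they were 2 of 2 and 2 of 2, and upstream 0 of 2 without it. In the other 7 genes (MTAP, KRR1, PHLDA1, HS3ST1, ITPRID2, VTI1A and DDIT4) 6 of 7 upstream windows were below 0 and 3 of 7 downstream windows above, against 2 of 7 and 6 of 7 without it. Without DMSO replicate 3, the downstream counts fell to 3 of 7 in the growth factor group and 1 of 2 for the nuclear regulators.

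The second question was what BET inhibition together with MED14 loss does there. Between dTAG+I-BET and DMSO, limma called 0 of the 40 windows, where 7% of all 200 were called, and 5 had an unadjusted p under 0.05 (edgeR called 0, with 5 at an unadjusted p under 0.05). Downstream, 17 of 20 windows were above 0 (median 0.10), and upstream 8 of 20 (median -0.02). Without 1 library the downstream count was 16 to 18 and the upstream count 4 (without DMSO replicate 2) to 14 (without DMSO replicate 1). The groups did not overlap in 9 windows, all higher, 7 of them downstream, which is 22.5% of the 40 against 41.5% of all 200 (29.5% above and 12% below). The log2 ratio was 0.33 (SE 0.12, limma adjusted p = 0.121) downstream of PHLDA1, 0.24 (SE 0.09, 0.150) downstream of KRT19, 0.24 (SE 0.10, 0.150) downstream of ERRFI1 and 0.22 (SE 0.09, 0.175) downstream of KRT80. At PHLDA1 it was 0.20 without DMSO replicate 3. Fitted with only dTAG+I-BET and DMSO, the windows downstream of KRT19, ERRFI1 and KRT80 passed the test (limma adjusted p = 0.0168, 0.0188 and 0.0337). Over all alternatives these adjusted p-values went from 0.0168 to 0.415, from 0.0188 to 0.431 and from 0.0297 to 0.431.

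Downstream of TRIB1, which encodes a pseudokinase, signal per kb was 3727, 3528 and 2620 in DMSO, 3092, 3270 and 2984 in dTAG, and 4182, 3847 and 4139 in dTAG+I-BET. Every dTAG+I-BET library was above all others. The log2 ratio of dTAG+I-BET was 0.32 over DMSO (SE 0.14, limma adjusted p = 0.176) and 0.38 over dTAG (SE 0.14, limma adjusted p = 0.580). At MYC the downstream ratio of dTAG+I-BET over DMSO was 0.35 (SE 0.18, limma adjusted p = 0.277). Without DMSO replicate 3, which was the lowest library downstream of TRIB1 and of MYC, the ratios over DMSO were 0.16 at TRIB1 and 0.14 at MYC.

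Between dTAG+I-BET and dTAG, which asks what BET inhibition adds, limma called 0 of the 40 windows and 0% of all 200, and 2 of the 40 had an unadjusted p under 0.05 (edgeR called 0, with 2). Of the 40, 31 were above 0, and 15 without dTAG replicate 3. The groups did not overlap in 4 windows that were higher and 1 that was lower, 12.5% against 23% of all 200 (21.5% above and 1.5% below). Leaving out dTAG replicate 3 makes overlap rarer by construction. Upstream, 2 windows were then higher and 4 lower, and downstream 3 and 4. Of all 200, 22.5% were higher and 21% lower. The window that was lower with all 9 libraries lay downstream of DCBLD2, which encodes a receptor-like membrane protein. Its signal per kb was 5803, 5390 and 5516 in DMSO, 5795, 5979 and 6387 in dTAG, and 4866, 4679 and 5400 in dTAG+I-BET. The DMSO values overlapped both groups, and the log2 ratio of dTAG+I-BET over dTAG was -0.28 (SE 0.09, limma adjusted p = 0.580).

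**Figure D3:**
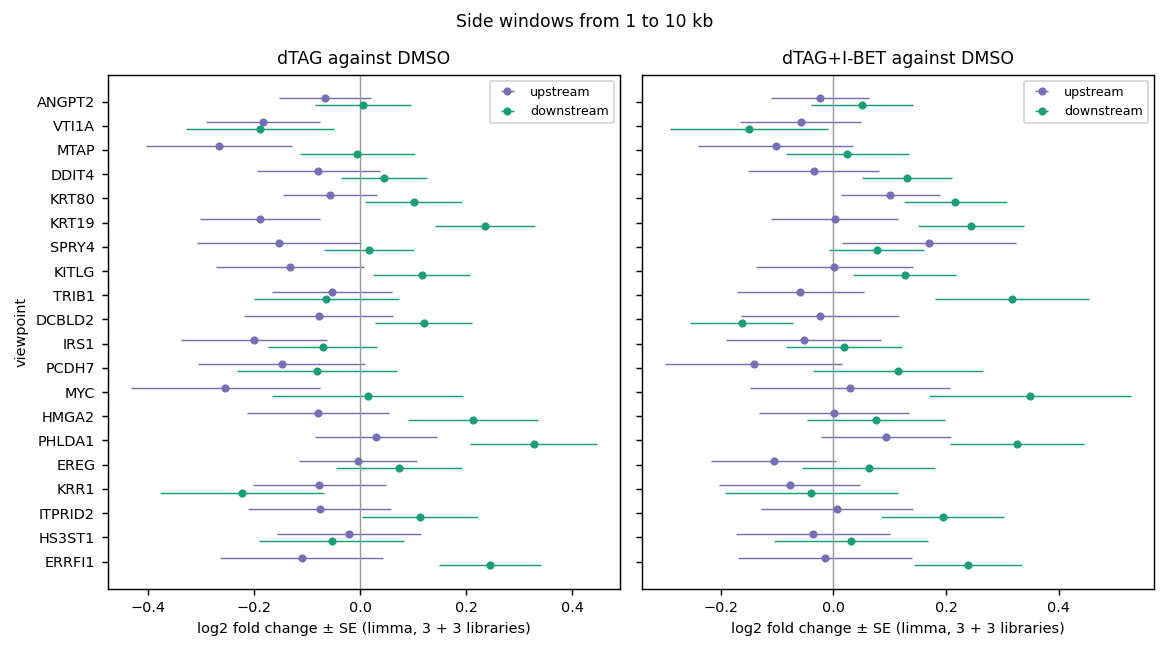
Log2 fold change of signal per kb from 1 to 10 kb (x axis) with its SE from limma, upstream and downstream of each of the 20 viewpoints (y axis), for dTAG (left) and dTAG+I-BET (right) against DMSO, 3 libraries each. Downstream of PHLDA1 both are at 0.33, and 19 of 20 upstream windows are below 0 in dTAG, against 4 of 20 without dTAG replicate 3.

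The ratio of downstream over upstream signal does not depend on the scaling of a library. Averaged over the 20 viewpoints on the log2 scale, it was 0.00, 0.08 and -0.06 in DMSO, 0.07, 0.07 and 0.35 in dTAG, and 0.12, 0.14 and 0.15 in dTAG+I-BET. All 3 dTAG+I-BET libraries were above all 3 DMSO libraries, a difference of 0.13 (two-sided exact permutation p = 0.1, below which this design cannot go, and 0.45 adjusted over 9 such tests). For dTAG over DMSO the groups overlapped and the difference was 0.16 (exact permutation p = 0.3, adjusted 0.9), and 0.06 without dTAG replicate 3. Between dTAG+I-BET and dTAG it was -0.03 (exact permutation p = 1), and 0.07 without dTAG replicate 3.

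The same ratio shifted farther out. From 10 to 50 kb the differences from DMSO were 0.22 in dTAG and 0.24 in dTAG+I-BET, and from 50 to 100 kb 0.32 and 0.29. At single viewpoints, limma called 0 of 20 ratios within 10 kb in each comparison, with 4, 3 and 1 at an unadjusted p under 0.05 for dTAG against DMSO, dTAG+I-BET against DMSO and dTAG+I-BET against dTAG; edgeR was not run on ratios. All 3 dTAG+I-BET libraries were above all 3 DMSO libraries at 10 of 20 viewpoints and below at 2, 60% together against 61% of 100 ratios over 5 bands up to 500 kb. For dTAG against DMSO the groups did not overlap at 3 of 20, against 40% of the 100, and for dTAG+I-BET against dTAG at 3 of 20, against 16%.

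At KRT19 the log2 ratio of the sides was -0.48, -0.28 and -0.42 in DMSO, -0.26, -0.01 and 0.36 in dTAG, and -0.18, -0.18 and -0.10 in dTAG+I-BET. The upstream side had more signal in every DMSO library, and the dTAG libraries were spread widely. The difference of dTAG from DMSO was 0.42 (SE 0.13, limma adjusted p = 0.112), and 0.26 without dTAG replicate 3. It was 0.57 without dTAG replicate 1, where it passed the test (limma adjusted p = 0.0171; 0.0171 to 0.352 over all alternatives).

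At TRIB1 the ratio was -1.11, -0.92 and -1.40 in DMSO, -1.28, -1.22 and -0.97 in dTAG, and -0.84, -0.75 and -0.72 in dTAG+I-BET. The dTAG+I-BET libraries were above all 6 others, with a difference of 0.38 from DMSO (SE 0.13, limma adjusted p = 0.139; 0.25 without DMSO replicate 3) and of 0.39 from dTAG (SE 0.13, limma adjusted p = 0.200). Without dTAG replicate 3 the latter was 0.48 and passed the test (limma adjusted p = 6.1e-05; 6.1e-05 to 0.604 over all alternatives). At PCDH7 it was 0.65, 0.58 and 0.65 in DMSO, 0.80, 0.62 and 0.67 in dTAG, and 0.86, 0.92 and 0.88 in dTAG+I-BET. The difference of dTAG+I-BET from DMSO was 0.26 (SE 0.09, limma adjusted p = 0.139). Fitted with only dTAG+I-BET and DMSO, this difference passed the test at TRIB1 and at PCDH7 (limma adjusted p = 0.00706 and 0.00967). In that fit the SE at PCDH7 was 0.07. Over all alternatives these adjusted p-values went from 0.00706 to 0.672 and from 0.00967 to 0.648.

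**Figure D4:**
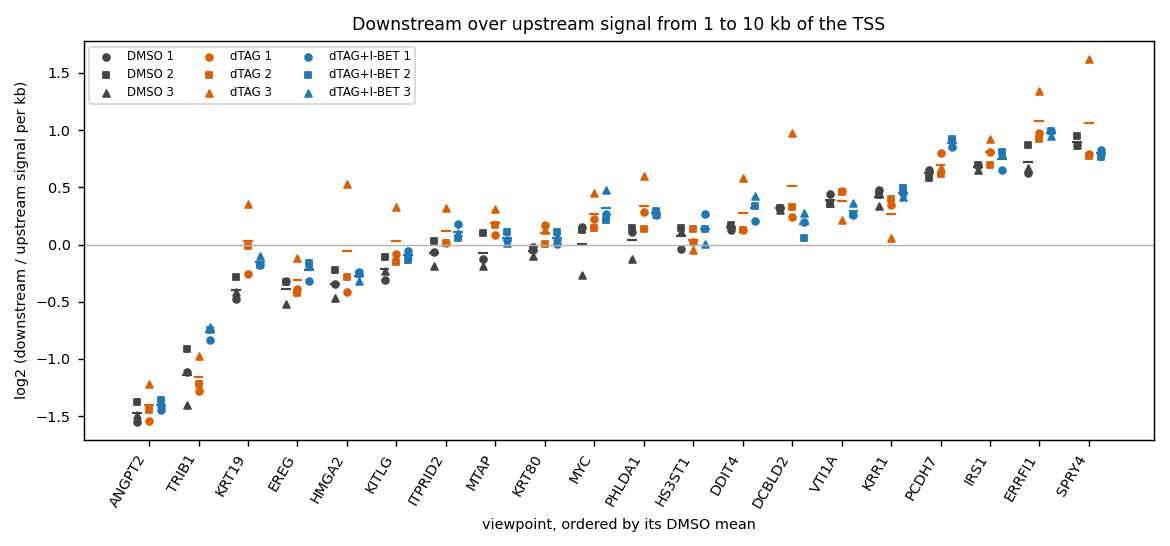
Log2 of downstream over upstream signal per kb from 1 to 10 kb (y axis) at the 20 viewpoints (x axis, ordered by DMSO mean), with 1 point per library and short lines for group means of 3. dTAG replicate 3 is the highest library at 13 of 20 viewpoints, with 1.62 at SPRY4.

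Differences between treatments in total signal within 10 kb were smaller than the spread between libraries. Relative to the DMSO mean, averaged over viewpoints on the log2 scale, DMSO replicates were at 0.09, -0.04 and -0.05, dTAG replicates at 0.10, 0.04 and -0.21, and dTAG+I-BET replicates at 0.01, 0.03 and 0.11. The groups overlapped in each comparison. The differences were -0.02 for dTAG over DMSO (two-sided exact permutation p = 0.9; 0.07 without dTAG replicate 3), 0.05 for dTAG+I-BET over DMSO (p = 0.5) and 0.07 for dTAG+I-BET over dTAG (p = 0.7; -0.02 without dTAG replicate 3). For near over far signal the differences were 0.19 for dTAG over DMSO (exact permutation p = 0.6; 0.0054 without dTAG replicate 3), -0.04 for dTAG+I-BET over DMSO (p = 0.4) and -0.23 for dTAG+I-BET over dTAG (p = 0.1; -0.04 without dTAG replicate 3).

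Single fragments were tested in a fit of 25083 fragments up to 500 kb with a mean signal of at least 100, which 779 of the 800 reached. limma called 0 of the 779 and 0% of all in each comparison, with 37, 50 and 72 at an unadjusted p under 0.05 for dTAG against DMSO, dTAG+I-BET against DMSO and dTAG+I-BET against dTAG. edgeR called 0 of the 779 in each, with 32, 47 and 56 at an unadjusted p under 0.05. The limma counts at the unadjusted p were 4.75%, 6.42% and 9.24% of the 779. The share of all fragments at that cut is not given here, so these counts are not read against a background. The groups did not overlap in 7.45%, 16.4% and 14.9% of the 779, against 11.1%, 14.2% and 11.6% of all fragments. The median log2 ratios of the 779 were -0.05, 0.01 and 0.08, and those of all fragments -0.07, 0.04 and 0.10. Without dTAG replicate 3 the medians were 0.07 for dTAG over DMSO and -0.05 for dTAG+I-BET over dTAG, against 0.07 and -0.03 over all fragments. For dTAG over DMSO, 25 of the 357 downstream fragments were higher without overlap and 4 lower. Of the 422 upstream fragments, 8 were higher and 21 lower. Over all fragments, 4.93% were higher and 6.14% lower without overlap. With 2 dTAG libraries, leaving out replicate 3, groups overlap less often by construction, and 80 downstream fragments were higher and 6 lower. Upstream, 48 were then higher and 25 lower, where 13.4% of all fragments were higher and 8.71% lower. For dTAG+I-BET over dTAG, 36 upstream fragments were higher without overlap and 20 lower, and downstream 35 and 25. Without dTAG replicate 3, upstream 42 were higher and 73 lower, and downstream 51 and 55. Of all fragments, 10.5% were then higher and 11.1% lower.

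Fragments among those with the smallest p are given with their values, and none passed the test. HS3ST1 -8.43 kb (43 bp, in the gene ENSG00000287778) had 217, 225 and 289 in DMSO, 629, 562 and 571 in dTAG, and 311, 413 and 560 in dTAG+I-BET. All dTAG libraries were above all DMSO libraries, and the log2 ratio was 1.12 (SE 0.34, limma adjusted p = 0.723). TRIB1 -8.98 kb (144 bp, chr8:125421306-125421449) had 1673, 838 and 1278 in DMSO and 547, 788 and 510 in dTAG, a log2 ratio of -0.95 (SE 0.29, limma adjusted p = 0.723). Its dTAG+I-BET values of 1412, 1017 and 1040 overlapped those of DMSO. ERRFI1 +3.92 kb, an intronic fragment of 118 bp, had 1102, 1654 and 1644 in DMSO and 2913, 2292 and 2350 in dTAG, a log2 ratio of 0.77 (SE 0.24, limma adjusted p = 0.723). Here too the dTAG+I-BET values, 1288, 1250 and 2069, overlapped those of DMSO.

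For dTAG+I-BET against DMSO, the fragments lay downstream of KRT19, TRIB1 and PHLDA1. KRT19 +7.62 kb (636 bp, chr17:41520370-41521005), beyond the end of KRT19 in the keratin gene KRT15, had 1984, 2003 and 1655 in DMSO and 3066, 3467 and 2657 in dTAG+I-BET. The log2 ratio was 0.69 (SE 0.19, limma adjusted p = 0.343). In dTAG the fragment had 2326, 2525 and 1906. TRIB1 +9.94 kb (1443 bp, chr8:125439580-125441022) had 1141, 1347 and 1000 in DMSO and 3070, 2798 and 1773 in dTAG+I-BET, a log2 ratio of 1.07 (SE 0.30, limma adjusted p = 0.343). Its dTAG values were 1944, 1864 and 765. PHLDA1 +8.37 kb, past the end of the gene, had 1460, 1427 and 1393 in DMSO, 2072, 2203 and 1320 in dTAG, and 2234, 2404 and 2584 in dTAG+I-BET. Its dTAG+I-BET libraries were above all 6 others, with a log2 ratio over DMSO of 0.73 (SE 0.22, limma adjusted p = 0.363).

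For dTAG+I-BET against dTAG, SPRY4 -3.64 kb (678 bp, chr5:142329758-142330435, in SPRY4-AS1) had 1336, 1703 and 1398 in dTAG and 2954, 2427 and 2561 in dTAG+I-BET, a log2 ratio of 0.82 (SE 0.21, limma adjusted p = 0.592). Its DMSO values were 1618, 1433 and 2201.

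**Figure D5:**
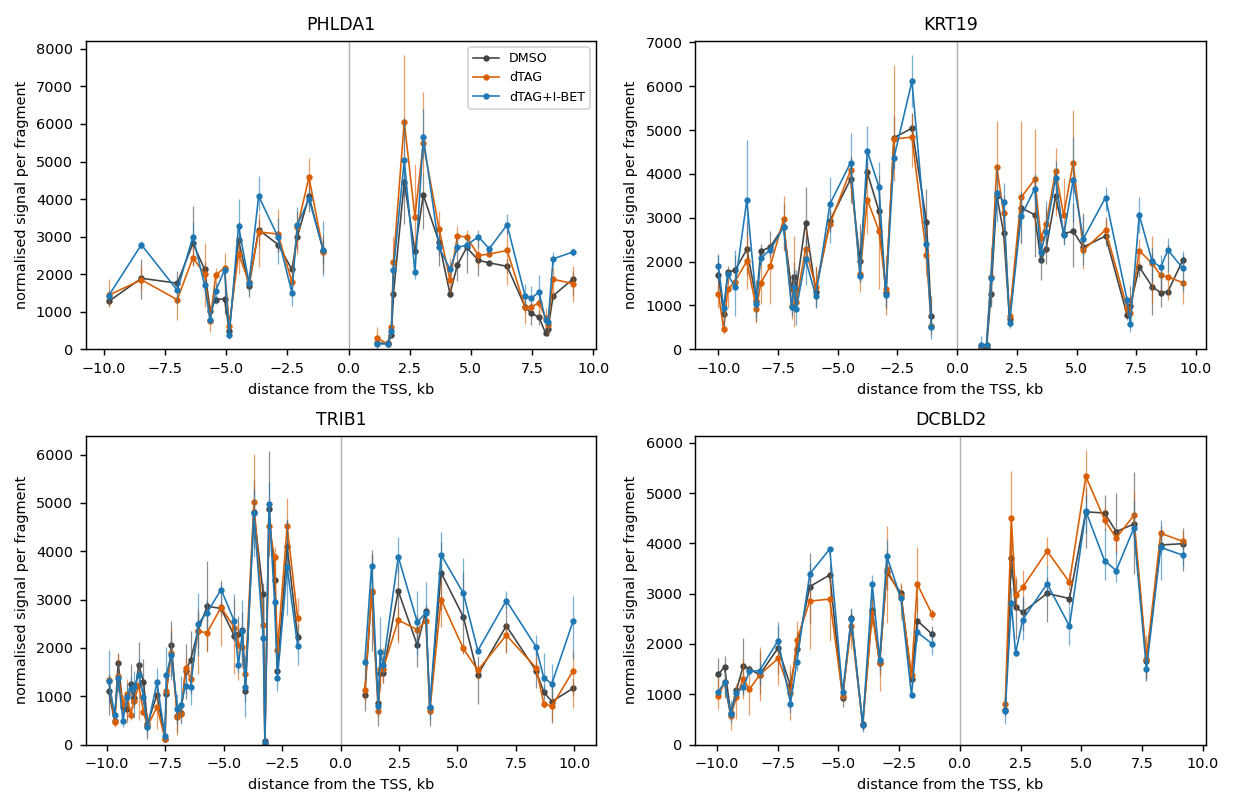
Normalised signal per fragment (y axis) by distance from the TSS in kb (x axis, upstream negative) at PHLDA1, KRT19, TRIB1 and DCBLD2, as means of 3 libraries per treatment with vertical lines from the lowest to the highest library. The treatments trace nearly the same peaks, and PHLDA1 +8.37 kb has 2234 to 2584 in dTAG+I-BET against 1393 to 1460 in DMSO.

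Counting error was compared with the errors of the fits. A side window held a median of 1197.5 interactions in a library, from which counting gives an SE of 0.034 on the log2 ratio of 2 groups, against 0.12 in the fit. For single fragments the values were 0.16 from counting and 0.23 from the fit. Signal of short and long fragments varied between libraries of the same treatment, DMSO included. Relative to the DMSO mean, fragments of at most 100 bp had median log2 ratios of -0.07, -0.13 and -0.06 in the dTAG+I-BET replicates, and those over 800 bp had 0.07, 0.14 and 0.20. In DMSO replicates 1, 2 and 3 they were 0.10, -0.22 and 0.11 for the short and 0.09, 0.01 and -0.11 for the long fragments. In dTAG replicates 1, 2 and 3 they were 0.11, -0.02 and -0.19 for the short and 0.07, 0.04 and -0.14 for the long fragments. Downstream fragments had a median length of 344.5 bp and upstream ones 277 bp. The part of length in the other results, the ratio of the sides included, was not tested.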

How the data were processed

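Capture-C was performed by the authors on 9 libraries of HCT-116 MED14-dTAG cells, with DpnII digestion and biotinylated oligonucleotides for 20 promoters. Interactions were counted per DpnII fragment with CapCruncher on hg38, and the processing notes name bcl2fastq 2.17. The signal deposited for each fragment holds these interactions after the authors had brought viewpoints and libraries to nearly equal totals. Column names give replicates as TR, a term left unexplained, so that p-values may measure technical spread.

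Distances were taken from the gene start of GENCODE 44 to the fragment midpoint. Of 869 DpnII fragments in the digest at 1 to 10 kb, 800 are listed. Of the others, 17 lie in the stretch without signal around the captured fragment and 52 elsewhere (median 11.5 bp, at most 153 bp). Window signal is the summed signal divided by the kb of listed fragments. Windows and ratios were tested on log2 of signal per kb plus 1, and fragments on log2 of signal plus 50 with a mean of at least 100. Fits were made with limma 3.58.1 in R 4.3.3 on all 9 libraries. They had a variance trend for windows and fragments and none for ratios. Adjusted p-values cover all 200 windows, 25083 fragments or 20 ratios. Averages over viewpoints were compared with two-sided exact permutation tests. edgeR 4.0.16 (quasi-likelihood) was run on the interactions recovered from the signal, which were whole in 100% of values (tolerance 0.01). It called 0 of the 40 windows and 0 of the 779 fragments in each comparison. Counting errors cover counting only.

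The fragment fits were run on simulated counts with independent noise, in which no library stood apart. Such counts cannot say how the fits behave with the spread seen here, and windows and ratios were not simulated. The fragments, gene groups, tests and alternatives were chosen with earlier results of these data known. Named by rule were the viewpoints at the ends of each order, MTAP, HMGA2, MYC, and, as none was called, the 3 fragments with the smallest p per comparison, of which 2 for dTAG+I-BET against dTAG are not reported here. The captured fragment was taken as the inner digest fragment, or the longest of several, of the stretch without signal. The bands of 1 kb, the ratios beyond 10 kb, the ratio per fragment and the counts by direction without 1 library were added after seeing the data. Python 3.11.15 with pandas 2.3.3, numpy 2.4.6 and matplotlib 3.10.9 did the rest.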

Additional observations from a re-analysis of the deposited data

How the results depend on the processing

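With 3 libraries per group, exact permutation tests cannot reach p = 0.05, and the median SE of 0.12 per window and 0.23 per fragment limits what the fits can call. Counts of called windows, fragments and ratios were 0 under every alternative run, with these exceptions. Rescaling to equal totals from 10 kb to 1 Mb gave 2 windows for dTAG against DMSO (downstream of ERRFI1, upstream of MTAP) and 4 for dTAG+I-BET against DMSO (also upstream of MTAP and downstream of ERRFI1, with KRT80 and DCBLD2). Fitting only the 2 groups compared gave 3 windows (downstream of ERRFI1, KRT19 and KRT80) and 7 ratios for dTAG+I-BET against DMSO. The ratios were those at TRIB1, PCDH7, MYC, ERRFI1, KRT19, PHLDA1 and ITPRID2 (limma adjusted p = 0.00706 to 0.0488). Leaving out 1 library gave 0 to 1 windows and 0 to 1 ratios for dTAG against DMSO and 0 to 1 ratios for dTAG+I-BET against dTAG. These were downstream of ERRFI1 without dTAG replicate 3, KRT19 without dTAG replicate 1 and TRIB1 without dTAG replicate 3. The causes were not tested.

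Mean signal within 10 kb had no stable direction. For dTAG over DMSO it was -0.02, but 0.0211 after rescaling, 0.00490 as a median over viewpoints and -0.0840 to 0.0690 without 1 library (above 0 without dTAG replicate 3 or DMSO replicate 1). For dTAG+I-BET over DMSO it was -0.00472 after rescaling. For dTAG+I-BET over dTAG it was -0.0258 after rescaling, -0.00375 as a median and -0.0197 to 0.133 without 1 library. The mean ratio of dTAG+I-BET over dTAG was -0.0753 to 0.0661 without 1 library.

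Of 50 named values, 37 kept their sign in all alternatives. Without 1 library, dTAG over DMSO was -0.180 to 0.0876 upstream of HMGA2, -0.0833 to 0.122 downstream of MTAP, -0.199 to 0.180 downstream and -0.390 to 0.00132 upstream of MYC, and -0.00126 to 0.471 for the ratio at HMGA2. dTAG+I-BET over DMSO was -0.0431 to 0.0370 upstream of HMGA2, -0.0320 to 0.0597 downstream of MTAP and -0.0479 to 0.0987 upstream of MYC. dTAG+I-BET over dTAG was -0.0862 to 0.181 upstream of HMGA2, -0.0245 to 0.267 upstream and -0.0973 to 0.108 downstream of MTAP, -0.397 to 0.0753 for the ratio at HMGA2 and -0.0274 to 0.140 for that at MYC. After rescaling, dTAG+I-BET over DMSO was -0.205 downstream of MTAP and -0.0501 upstream of HMGA2, and over dTAG -0.0666 and -0.0107. edgeR gave 0.00618 for dTAG over DMSO downstream of MTAP.

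Replicate numbers were not used as pairs in the main fits, and the labels do not say whether same-numbered libraries were handled together. Deviations from the group means of same-numbered libraries correlated at 0.31, -0.16 and 0.03 for dTAG and DMSO, 0.04, 0.00048 and -0.0023 for dTAG+I-BET and DMSO, and -0.10, 0.09 and 0.26 for dTAG+I-BET and dTAG. With 3 libraries per group, such values cannot decide whether libraries were paired. With a replicate block limma called 0 windows, 0 fragments and 0 ratios in each comparison (2, 3 and 5 windows, 39, 54 and 74 fragments, and 4, 3 and 2 ratios at an unadjusted p under 0.05; edgeR was not run with the block).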
